A study of Sus scrofa with 60 samples.

Results

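Bile duct ligation (BDL) in enterally fed piglets was examined here through the 22 liver libraries of the ENT diet, out of 60 libraries in the series. They were chosen by their sample titles, which mark 12 pigs as ENT with sham surgery (ENT-sham) and 10 as ENT with BDL (ENT-BDL), and all named genes were compared between these groups. The other 38 libraries came from pigs on total parenteral nutrition with a soybean oil emulsion (SLE) or a mixed lipid emulsion that also holds oils of fish and olive and medium-chain fats (MLE), again with sham surgery or BDL.

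All pigs were newborn offspring of sows of mixed Landrace and Hampshire breeds, of both sexes, delivered slightly preterm by caesarean section and fitted with a jugular catheter. In ENT-BDL pigs the cystic and common bile ducts were tied off. ENT-sham pigs had the same midline incision and handling of the liver with the ducts left intact. Every pig received parenteral nutrition at the start, and the ENT pigs were then moved to milk replacer through an orogastric tube. Liver was taken on day 14, so each library shows 1 time after surgery and mixes all cells of the tissue. In such bulk tissue, fewer cells of a type and less RNA per cell cannot be told apart.

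Bile acids are made from cholesterol in hepatocytes, with CYP7A1 at the rate-limiting step, and are exported into bile across the canalicular membrane. When bile cannot drain, bile acids build up in hepatocytes, and the nuclear receptor FXR (gene NR1H4) normally lowers their synthesis and raises their export. Obstruction is also known for the ductular reaction, in which cells with bile duct markers multiply around the portal tracts together with inflammation and deposition of collagen.

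1 library stood apart from its label, and its counts matched those of a pig of the other group. ENT-sham replicate 2 and ENT-BDL replicate 1 gave almost the same counts, with a chi-square per degree of freedom of 1.87 over 17232 genes, where 1 would be sampling noise alone. The next closest of the 1770 pairs of libraries had a value of 15, and the median of the other 230 pairs of ENT libraries was 74.1. To see which group they resembled, genes were called (adjusted p under 0.05 with more than a 2-fold change) without each ENT library in turn and the left-out library was placed on those genes. The library labelled ENT-sham replicate 2 was nearer to the mean of its own group for 9.49% of 801 genes, whereas the other 11 ENT-sham libraries were nearer to theirs for 78.7% to 91.5%. ENT-BDL replicate 1 was nearer to its own group for 80.7% of 523 genes, within the 67.9% to 86.4% of the other 9 ENT-BDL libraries. Whether either carries a wrong label, or 1 liver was sequenced under both, was not tested. Both stayed in under their labels. All 153 genes named below that passed the adjusted p in the fit of all 60 libraries also passed without both, 152 of them with a larger fold change. For a named gene, a call below means passing the adjusted p at any fold change. For ENT-BDL against ENT-sham the values without the pair are given where a call changed or a fold change moved by more than 1.5 times. Levels are given as the median with the lowest and highest pig in parentheses, as counts scaled to library size (CPM). Those of ENT-sham are from the other 11 pigs, with the library labelled ENT-sham replicate 2 given apart or at the end of the parentheses.

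**Figure D1:**
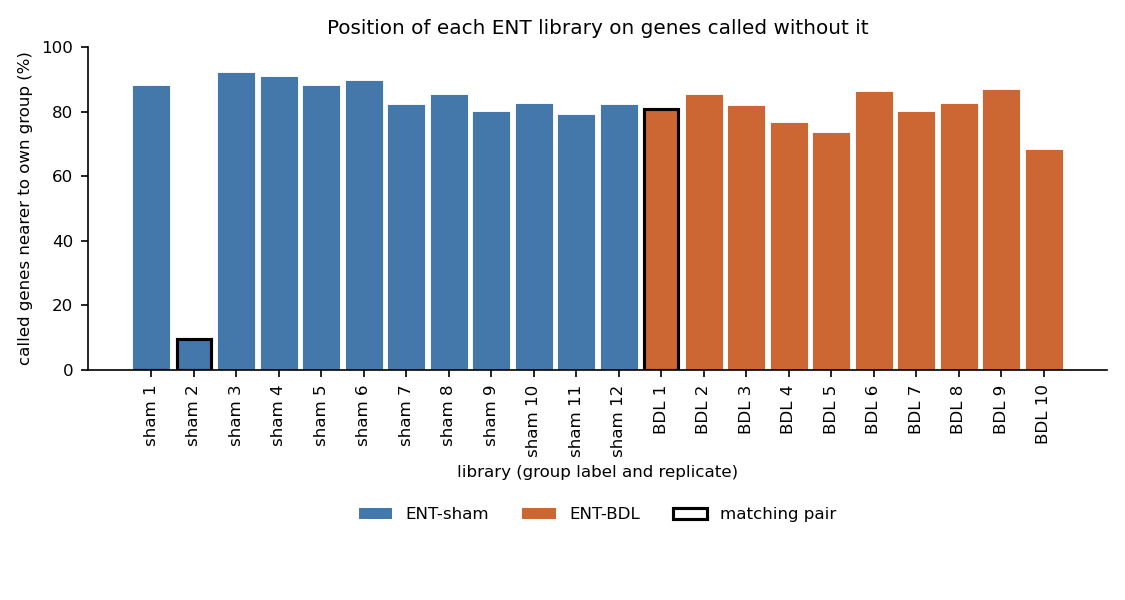
For each ENT library (horizontal axis), the bars show the percentage of genes, among those called without that library, for which it lay nearer to the mean of its own group than to the other group. The library labelled ENT-sham replicate 2 stands at 9.49%, and every other library at 67.9% or more. For each library of the matching pair, the other one stayed in its labelled group.

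Total counts were 14776809 to 21139248 in ENT-sham and 15193337 to 21374161 in ENT-BDL, overlapping ranges. Albumin (ALB), the main secreted product of hepatocytes, lay at 37376 (27450.1 to 56789) CPM in ENT-BDL and 72036 (60475 to 87412, replicate 2 at 27492) in ENT-sham, and the hepatocyte factor HNF4A at 290.4 (263 to 329.03) and 304 (241 to 379.9, replicate 2 at 252).

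After BDL, 552 of 16210 tested genes passed an adjusted p under 0.05 with more than a 2-fold change. Of these, 354 were higher (2.18% of tested genes) and 198 lower (1.22%). At any fold change 1424 genes were higher (8.78%) and 1403 lower (8.66%), the shares against which each count of list members below is set. The lists were written with earlier results of these data known and hold some of the largest changes. Their counts are therefore descriptions. The median log2 fold change of all tested genes was 0.0041. Without the matching pair 16141 genes were tested and 723 passed both thresholds, 486 higher and 237 lower, with 542 of the 552 among them. At any fold change the shares were then 10.7% higher and 10.2% lower. Among the 354 genes that rose more than 2-fold the median log2 fold change was 1.42 in all libraries and 1.72 without the pair. For the 198 that fell, the medians were -1.39 and -1.48. In the 20 remaining pigs, every ENT-BDL pig lay above every ENT-sham pig for 1.27% of tested genes and below every one for 0.886%. Sample titles also carry a number that pigs of both groups share, whose meaning the labels do not give. Of the 153 genes named below that passed, 131 had the same direction within all 6 numbers that hold both groups, and with the number as a block 596 genes passed both thresholds.

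**Figure D2:**
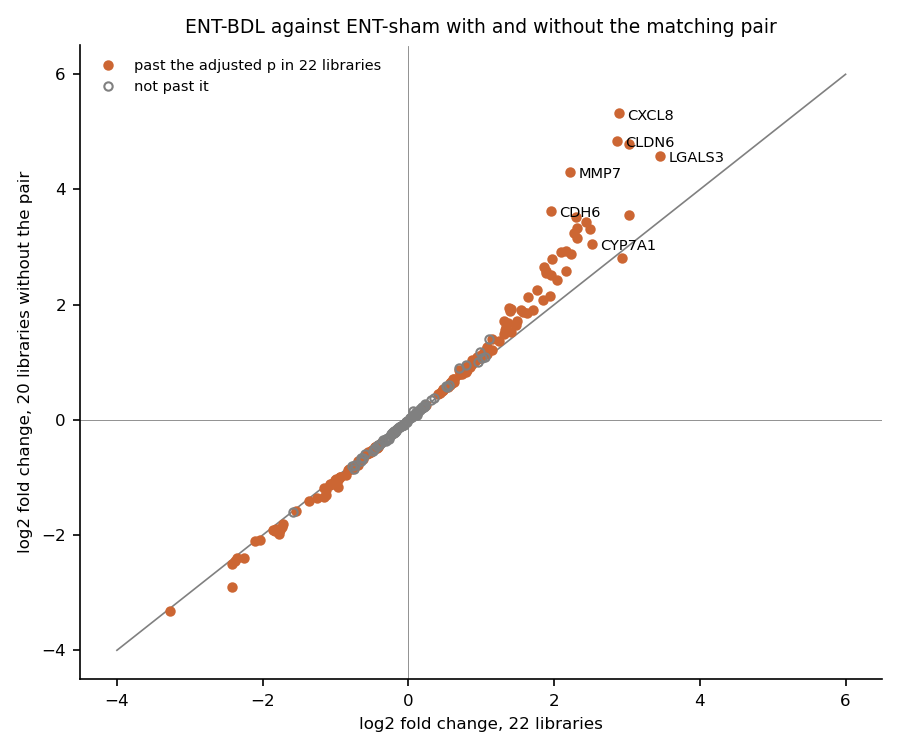
Each point is a gene named in the text, with its log2 fold change of ENT-BDL against ENT-sham, and the line marks equal values. ENT libraries number 22 on the horizontal axis and 20, without the matching pair, on the vertical axis. Both fits also held the libraries of the other diets. The rises of KRT7, MMP7, CLDN6 and CXCL8 lie above the line, as for CXCL8 from 2.89 to 5.32, and the fall of CORIN lies near it (-1.81 and -1.91).

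Most tested bile duct markers rose after BDL. Of 30 tested genes of cholangiocytes and the ductular reaction, 20 were higher and 1 was lower, against 8.78% and 8.66% of all genes, and their median log2 fold change was 0.76. Without the pair 21 were higher and 1 was lower. Keratin 7 (KRT7, chromosome 5, 17553192-17570582), a bile duct keratin, lay at 2.17 (1.17 to 5.503) CPM in 11 ENT-sham pigs, at 27.9 in the library labelled ENT-sham replicate 2, and at 14.2 (11.2 to 33.6) in ENT-BDL. Its log2 fold change was 1.85, SE 0.34, adjusted p = 7.03e-05, or 2.66 without the pair. Keratin 19 (KRT19) lay at 7.94 (5.32 to 12.2) CPM in ENT-sham, 33.2 in replicate 2, and 21.9 (16.5 to 48.4) in ENT-BDL (log2 fold change 1.34, SE 0.25, adjusted p = 0.000104). For both keratins the groups were separate once the pair was left out. KRT8 and KRT18, which hepatocytes share with bile ducts, rose by 0.59 and 0.63 (adjusted p = 0.000883 and 0.000948). MMP7, a matrix metalloproteinase secreted by injured bile duct epithelium (chromosome 9, 33214590-33225080), lay at 3.95 (2.51 to 9.87) CPM in ENT-sham, 227 in replicate 2, and 84.7 (52.1 to 213) in ENT-BDL. Its log2 fold change was 2.22, SE 0.52, adjusted p = 0.00161 in all libraries and 4.31 (adjusted p = 6.99e-18) without the pair. Osteopontin (SPP1, chromosome 8, 131077786-131085334), a secreted matrix protein, went from 14.1 (8.77 to 29.8) CPM to 85.2 (44.2 to 151), with 71.5 in replicate 2 (log2 fold change 2.16, SE 0.28, adjusted p = 1.91e-07).

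The list holds several membrane proteins of duct epithelium. The chloride channel CFTR lay at 14.6 (9.42 to 20.4) CPM in ENT-sham, 91.1 in replicate 2, and 45.7 (27.3 to 92.7) in ENT-BDL (log2 fold change 1.31, adjusted p = 0.000322). The secretin receptor SCTR and fibrocystin PKHD1, a protein of the primary cilium, rose by 1.39 and 1.38 on the log2 scale (adjusted p = 0.00133 and 0.000769). CDH16, a cadherin of epithelial cells that is not on the list and was named for its large rise (chromosome 6, 27589183-27599002), rose from 5.72 (2.82 to 16.0) CPM to 78.7 (18.0 to 111), with 93.2 in replicate 2 (log2 fold change 2.32, SE 0.42, adjusted p = 7.07e-05, or 3.32 without the pair). Another cadherin, CDH6 of the list, rose by 1.96, or by 3.63 without the pair. In edgeR on the 22 ENT libraries alone the calls of MMP7 and CDH6 were lost (adjusted p = 0.0657 and 0.0525). GGT1, whose enzyme activity in serum is a clinical sign of bile duct injury, lay at 58.7 (47.1 to 87.4) CPM in ENT-BDL, where all 10 pigs were above all 12 ENT-sham libraries (log2 fold change 0.80, SE 0.12, adjusted p = 1.27e-06). EPCAM, an adhesion protein of bile ducts, rose by 0.71 (SE 0.20, adjusted p = 0.00709) with overlapping groups. The epithelial transcription factor ELF3 lay at 2.84 (1.46 to 9.28) CPM in ENT-sham, 32.9 in replicate 2, and 23.0 (8.86 to 35.5) in ENT-BDL (log2 fold change 1.89, SE 0.35, adjusted p = 9.24e-05, or 2.56 without the pair). SOX9, a transcription factor of bile duct cells and their progenitors, had a log2 fold change of 0.70 that missed the threshold (adjusted p = 0.0753) and passed it without the pair (0.91, adjusted p = 0.00371). SOX9 also passed without ENT-sham replicate 2 alone and without ENT-BDL replicate 5 (adjusted p = 0.000517 and 0.037). The member that was lower was the tetraspanin TSPAN8, with at most 19 counts in any ENT library (log2 fold change -1.16, adjusted p = 0.0394, past the threshold in 10 of the 22 fits that left out 1 ENT library and not with the title number as a block, adjusted p = 0.0622).

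**Figure D3:**
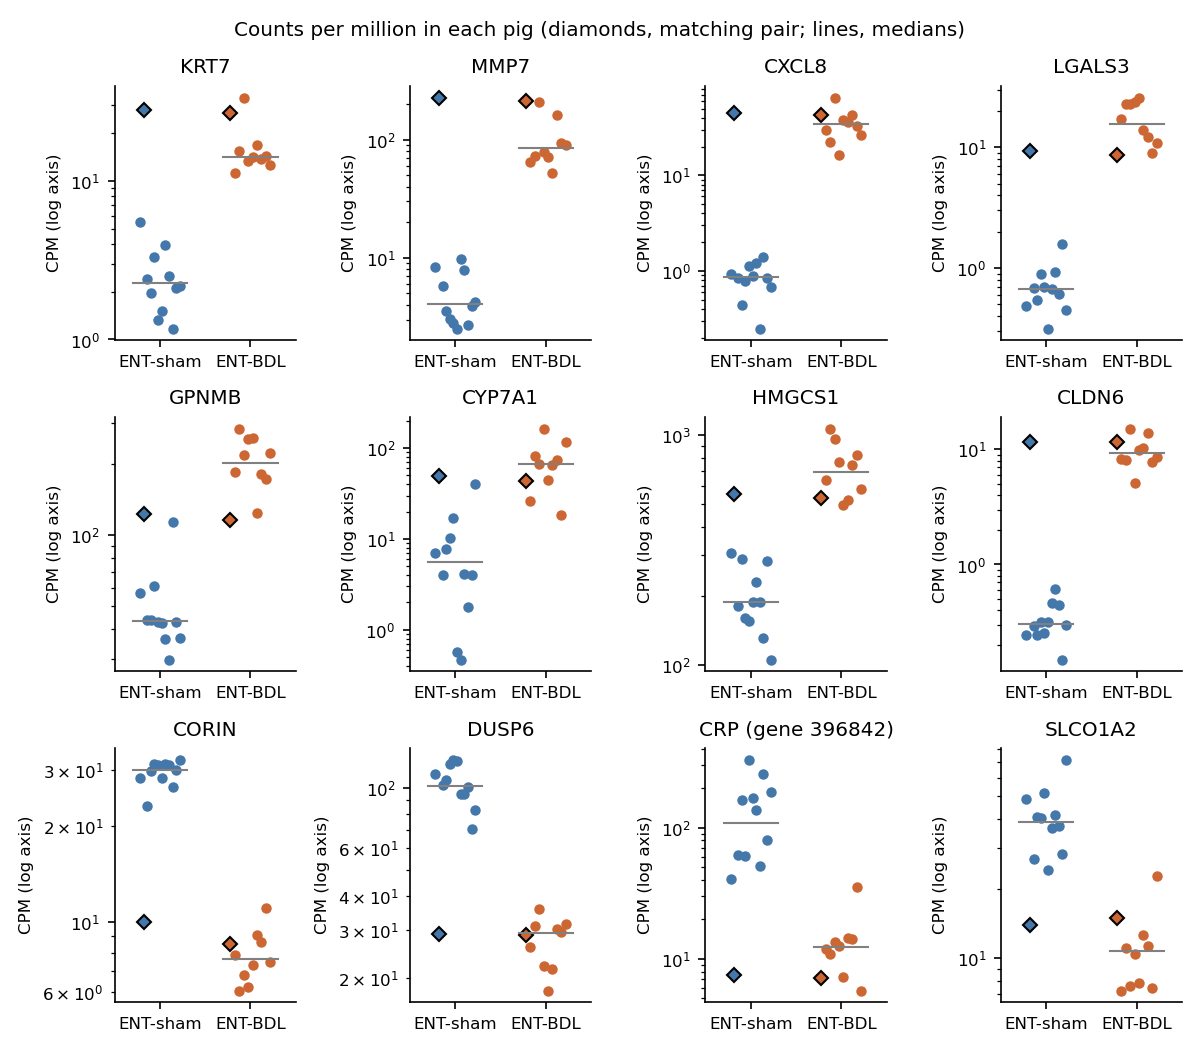
CPM on a log axis for each ENT pig in 12 genes, with lines at the group medians and diamonds for the matching pair. In the genes that rose, the ENT-sham diamond lies with the ENT-BDL pigs, as for MMP7 at 227 CPM against at most 9.87 in the other ENT-sham pigs, and in CORIN, DUSP6, CRP and SLCO1A2 it lies low with them.

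Claudins, which seal the contacts between epithelial cells, differed among themselves. Of 24 tested claudin and tight junction genes 9 were higher and 1 was lower, against 8.78% and 8.66% of all genes, with a median of 0.22. CLDN6 (chromosome 3, 39168506-39172631) was scarce in ENT-sham at 0.299 (0.148 to 0.616) CPM, lay at 11.6 in replicate 2, and reached 9.28 (5.14 to 15.2) in ENT-BDL. Its log2 fold change was 2.87, SE 0.45, adjusted p = 6.37e-06, or 4.85 (adjusted p = 1.55e-19) without the pair. CLDN7 rose from 3.39 (2.80 to 4.77) CPM to 18.2 (13.3 to 26.3), with 15.6 in replicate 2 (log2 fold change 2.04, SE 0.23, adjusted p = 5.04e-09), and CLDN10 rose by 1.64 (adjusted p = 5.67e-06). All ENT-BDL pigs lay above the other 11 ENT-sham pigs in these 3 genes. Occludin (OCLN) rose by 0.47 (adjusted p = 0.000259). The log2 fold changes of CLDN4 and CLDN1 were 0.19 and -0.20, neither past the threshold (adjusted p = 0.403 and 0.172).

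CXCL8 (interleukin-8, chromosome 8, 69932646-69935861), a chemokine that attracts neutrophils, had the largest rise among genes with a mean log2 CPM of at least 2. It lay at 0.840 (0.247 to 1.39) CPM in 11 ENT-sham pigs, at 45.3 in the library labelled ENT-sham replicate 2, and at 34.6 (16.2 to 65.2) in ENT-BDL. The groups were separate in all but the matching library. The log2 fold change was 2.89, SE 0.53, adjusted p = 7.05e-05, or 5.32 (adjusted p = 1.23e-18) without the pair. Of 24 tested chemokine genes 7 were higher and 1 was lower, against 8.78% and 8.66% of all genes, with a median of -0.06, and 2 were lower without the pair. CXCL2, another neutrophil attractant, had 0.0988 (0 to 0.800, replicate 2 at 2.26) CPM in ENT-sham and 1.74 (0.385 to 2.80) in ENT-BDL (log2 fold change 1.89, adjusted p = 0.00135, or 2.59 without the pair). CCL20, which draws lymphocytes and dendritic cells, had 0.148 (0 to 1.13, replicate 2 at 3.28) CPM in ENT-sham and 2.30 (1.13 to 6.72) in ENT-BDL (log2 fold change 2.31, adjusted p = 0.00165, or 3.16 without the pair). CCL2, the main monocyte attractant, rose by 0.87 (adjusted p = 0.0162), with 7.58 (3.00 to 17.8, replicate 2 at 25.2) CPM in ENT-sham and 17.3 (9.82 to 25.3) in ENT-BDL. CCL11, an eosinophil attractant with at most 35 counts in a library, rose by 2.93 (adjusted p = 0.0025). CXCL14 rose by 1.00 (adjusted p = 0.0253), a call lost without ENT-BDL replicate 2 (adjusted p = 0.124).

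In NF-kappaB and TNF signalling, of 57 tested members 21 were higher and 1 was lower, with a median of 0.26. The receptors TNFRSF9 (4-1BB, chromosome 6, 68590562-68609784) and TNFRSF12A (the TWEAK receptor Fn14, chromosome 3, 39166288-39168294) were among the 12 largest rises of such genes. TNFRSF9 went from 1.51 (0.611 to 7.0004) CPM to 19.6 (14.4 to 36.7), with 20.4 in replicate 2 (log2 fold change 2.498, SE 0.41, adjusted p = 1.18e-05, or 3.31 without the pair). TNFRSF12A went from 2.22 (0.598 to 2.82) to 17.7 (12.5 to 48.0), with 27.1 in replicate 2 (log2 fold change 2.43, SE 0.36, adjusted p = 2.92e-06, or 3.43 without the pair). TNFRSF12A and CLDN6 are neighbours on opposite strands of chromosome 3 and do not overlap. The kinase IKBKE rose by 1.495 (adjusted p = 1.57e-07), and the transcription factor subunits RELB and NFKB2 of the noncanonical pathway rose by 1.08 and 0.71 (adjusted p = 0.000322 and 8.29e-05). The inhibitors NFKBIA and TNFAIP3, which NF-kappaB itself induces, rose by 0.62 and 0.58 (adjusted p = 0.00195 and 0.0104). VCAM1, an adhesion molecule for leukocytes, lay at 63.3 (35.3 to 104) CPM in ENT-sham, 216 in replicate 2, and 202 (147 to 321) in ENT-BDL (log2 fold change 1.33, adjusted p = 4.24e-06). The member that fell was P-selectin (SELP), an adhesion molecule of platelets and endothelium, from 5.197 (3.33 to 10.2, replicate 2 at 2.0003) CPM to 1.72 (1.16 to 2.17) (log2 fold change -1.74, SE 0.23, adjusted p = 2.25e-07).

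Of 26 tested Kupffer cell and macrophage genes 8 were higher and 4 were lower, against 8.78% and 8.66% of all genes, with a median of -0.16. GPNMB, a lysosomal glycoprotein (chromosome 9, 92037428-92071501), lay at 42.9 (29.7 to 113) CPM in ENT-sham, 123 in replicate 2, and 202 (116 to 283) in ENT-BDL (log2 fold change 1.85, SE 0.24, adjusted p = 2.12e-07). TREM2, a lipid receptor of macrophages, lay at 0 (0 to 0.126, replicate 2 at 1.06) CPM in ENT-sham and 0.991 (0.284 to 2.10) in ENT-BDL (log2 fold change 3.03, adjusted p = 3.86e-05, or 4.79 without the pair), with at most 39 counts in a library. Lipoprotein lipase (LPL), from the list of lipogenesis genes, lay at 0.123 (0 to 0.667, replicate 2 at 0.766) CPM in ENT-sham and 1.64 (0.774 to 3.33) in ENT-BDL, with all 10 ENT-BDL pigs above all 12 ENT-sham libraries (log2 fold change 3.03, adjusted p = 0.000115). The scavenger receptor MARCO rose from 6.81 (2.63 to 16.3, replicate 2 at 16.1) CPM to 24.2 (15.7 to 35.6) (log2 fold change 1.48, adjusted p = 1.11e-05). CD5L, of the Kupffer cell and macrophage list, fell from 544 (474 to 681, replicate 2 at 228) CPM to 293 (231 to 558) (log2 fold change -0.66, adjusted p = 0.00404). The Kupffer cell and macrophage markers CD68, CD163 and VSIG4 had log2 fold changes of -0.10, -0.38 and -0.15, none past the threshold (adjusted p = 0.598, 0.208 and 0.455).

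Galectin-3 (LGALS3, chromosome 1, 184478639-184496155), a lectin of activated macrophages and bile duct epithelium, was separate between the groups outside the matching pair. It lay at 0.667 (0.314 to 1.58) CPM in 11 ENT-sham pigs, 9.36 in the library labelled ENT-sham replicate 2, and 15.6 (8.66 to 25.9) in ENT-BDL (log2 fold change 3.45, SE 0.45, adjusted p = 1.81e-07, or 4.59 without the pair). Of 7 tested galectins 3 were higher, the others being LGALS1 (1.04, adjusted p = 6.49e-05) and LGALS2 (1.24, adjusted p = 0.00229). LGALS9 had -0.45 (adjusted p = 0.418), and LGALS4, with at most 10 counts in a library, was not in the tested set. The calcium-binding protein S100A6 (chromosome 4, 96098264-96099686) lay at 1.51 (1.13 to 3.06) CPM in ENT-sham, 34.1 in replicate 2, and 21.7 (14.8 to 33.9) in ENT-BDL (log2 fold change 2.30, SE 0.43, adjusted p = 8.73e-05, or 3.53 without the pair).

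Of 13 neutrophil genes 1 was higher, or 2 without the pair. The gene higher in both fits was the growth factor receptor CSF3R (0.94, adjusted p = 0.02), with ENT-sham at 1.93 (1.48 to 5.39, replicate 2 at 6.98) CPM and ENT-BDL at 6.96 (1.21 to 8.61). The neutrophil granule genes S100A8 and S100A9 had log2 fold changes of 0.96 and 1.01 and the receptor CXCR2 one of -0.27, none past the threshold (adjusted p = 0.168, 0.128 and 0.483). The summed neutrophil list ran from 21.9 to 49.3 CPM in ENT-sham and from 15.1 to 61.4 in ENT-BDL. None of 18 T and NK cell genes and none of 11 B and plasma cell genes passed by edgeR, and 1 and 0 did without the pair. Their summed levels were 37.0 to 70.7 against 29.8 to 67.7 CPM and 25.5 to 41.2 against 20.7 to 44.0. The T cell genes CD3E and CD8A had log2 fold changes of 0.07 and 0.19, and CD2 had 0.15. The B and plasma cell genes CD79A and JCHAIN had -0.30 and 0.35. None of these 5 passed (adjusted p = 0.924, 0.755, 0.817, 0.496 and 0.394). GZMB and MS4A1, with at most 31 and 10 counts in a library, were not in the tested set. At an unadjusted p under 0.05 there were 2 T and NK cell genes and 2 B and plasma cell genes, and by DESeq2 0 and 1 passed.

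Among extracellular matrix genes, of 60 tested collagen and matrix genes 26 were higher and 4 were lower, with a median of 0.41, and without the pair 31 were higher and 4 lower. Collagen III (COL3A1), a fibrillar collagen, lay at 769.9 (591 to 959) CPM in ENT-sham, 1986 in replicate 2, and 1572 (801 to 1979.6) in ENT-BDL (log2 fold change 0.79, SE 0.20, adjusted p = 0.00318). Collagen I (COL1A1) ranged more widely in ENT-BDL, at 691 (196 to 1195) CPM against 312 (203 to 644) in ENT-sham and 1199.9 in replicate 2. COL1A1 missed the threshold (0.79, adjusted p = 0.0855) and passed without the pair (0.95, adjusted p = 0.0263). It also passed without ENT-sham replicate 2 alone (adjusted p = 0.00971) and without ENT-BDL replicate 5 (adjusted p = 0.0465). Laminin beta-1 (LAMB1), of basement membranes, rose by 0.62 (adjusted p = 0.000221). TIMP1, the inhibitor of matrix metalloproteinases, rose by 1.41 (adjusted p = 0.025), a call lost without ENT-BDL replicate 2 (adjusted p = 0.169), in which TIMP1 was highest at 64.4 CPM. The gelatinase MMP9 rose by 2.24 (adjusted p = 0.000883), or by 2.87 without the pair. The plasminogen activator PLAT rose by 1.77 (adjusted p = 0.000156). LOXL2, which crosslinks collagen, rose by 0.52 (adjusted p = 0.0277), a call lost without ENT-BDL replicate 2, 4 or 10 (adjusted p = 0.0602, 0.0599 and 0.0536). The metalloproteinase MMP19 fell from 173 (129.7 to 215, replicate 2 at 49.8) CPM to 79.0 (44.3 to 112) (log2 fold change -1.07, SE 0.17, adjusted p = 1.18e-05).

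Hepatic stellate cells and myofibroblasts are the main makers of scar matrix. Of 20 tested stellate cell and myofibroblast genes 2 were higher and 1 was lower, near the 8.78% and 8.66% of all genes, with a median of 0.01, and 3 were higher without the pair and 2 lower with the title number as a block. Those higher were vimentin (VIM), a filament of mesenchymal and ductular cells, at 0.87 (adjusted p = 3.27e-05) and the growth factor PDGFA at 1.15 (adjusted p = 0.000255). Desmin (DES), a stellate cell filament, was lower by a log2 fold change of -0.43 (adjusted p = 0.0411), a call kept in 9 of the 22 fits that left out 1 ENT library. Smooth muscle actin ACTA2, PDGFRB and LRAT had log2 fold changes of 0.10, 0.22 and -0.18, none past the threshold (adjusted p = 0.766, 0.335 and 0.473).

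In the TGF-beta family 5 of 32 tested genes were higher and 3 lower, against 8.78% and 8.66% of all genes, and 5 were lower without the pair or with the title number as a block. TGFB1, the fibrogenic cytokine, lay at 36.8 (25.5 to 43.5, replicate 2 at 45.4) CPM in ENT-sham and 42.1 (21.1 to 55.2) in ENT-BDL, with a log2 fold change of 0.12 (SE 0.13, adjusted p = 0.571). TGFB2 and the inhibitory SMAD7 had 0.23 and -0.06 (adjusted p = 0.423 and 0.743). Follistatin (FST, chromosome 16, 32806341-32811382), which binds and blocks activins, fell from 19.3 (9.04 to 34.0) CPM to 3.23 (2.25 to 5.89), with 4.64 in replicate 2 (log2 fold change -2.25, SE 0.37, adjusted p = 1.64e-05). The activin subunit INHBB fell by 1.26 on the log2 scale (adjusted p = 1.05e-05), and the gene listed as INHBA, a single short feature on chromosome 12 (53115379-53117128) that may not be the activin subunit gene, by 0.93 (adjusted p = 1.79e-07). The ligand BMP7 rose from 0.565 (0.224 to 0.978, replicate 2 at 3.15) CPM to 2.05 (0.770 to 3.90) (log2 fold change 1.36, adjusted p = 0.0031).

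Of 17 tested genes of bile acid synthesis, the cytochromes CYP7A1 and CYP8B1 were higher and 1 gene was lower. Among all tested genes 8.78% were higher and 8.66% lower. In the list 3 were higher without the pair and 2 lower with the title number as a block. CYP7A1 (chromosome 4, 74343101-74372628) varied widely among pigs, from 4.13 (0.467 to 40.3) CPM in ENT-sham, with 49.4 in replicate 2, to 66.0 (18.2 to 164) in ENT-BDL. The groups overlapped, and the log2 fold change was 2.52, SE 0.54, adjusted p = 0.000527, or 3.06 without the pair. CYP8B1, the sterol 12-hydroxylase that sets the share of cholic acid, reached at most 14 counts in a library and 0.774 CPM in ENT-BDL. Its log2 fold change of 2.27 (adjusted p = 0.0291), or 3.25 without the pair, lost its call without ENT-BDL replicate 7 or 10 (adjusted p = 0.0729 and 0.0545). CYP27A1, of the alternative pathway, had a log2 fold change of 0.31 (adjusted p = 0.0531), and 0.34 without the pair (adjusted p = 0.0387), where it passed. On the ENT libraries alone it passed by DESeq2 and edgeR (adjusted p = 0.00763 and 0.023). It also passed without ENT-sham replicate 2, 5 or 12 or ENT-BDL replicate 1, 2, 4 or 9 (adjusted p = 0.033 to 0.0476). The peroxisomal enzyme HSD17B4, which shortens the side chain, fell from 595 (530.1 to 652, replicate 2 at 285) CPM to 376 (292 to 539) (log2 fold change -0.56, SE 0.10, adjusted p = 6.24e-05).

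Of 19 tested transporters of bile acids and organic anions 6 were higher and 3 were lower, against 8.78% and 8.66% of all genes. On the canalicular side the bile salt export pump ABCB11 rose from 423 (288 to 569.8, replicate 2 at 744) CPM to 662 (521 to 855) (log2 fold change 0.57, SE 0.16, adjusted p = 0.00988), and the phosphatidylcholine transporter ABCB4 from 50.2 (32.0 to 90.03, replicate 2 at 117) to 183 (104 to 319) (log2 fold change 1.70, adjusted p = 8.1e-06). The sterol transporter ABCG5 lay at 56.0 (47.6 to 97.0, replicate 2 at 97.5) CPM in ENT-sham and 121 (95.2 to 156) in ENT-BDL (log2 fold change 0.88, SE 0.13, adjusted p = 1.27e-06). ABCG5 overlaps the gene DYNC2LI1 on the other strand, and the library kit does not mark strand. On the blood side, both subunits of the organic solute transporter were higher, SLC51A by 2.10 and SLC51B by 1.57 (adjusted p = 0.00696 and 0.000239), with SLC51A at 2.92 without the pair. SLC51B lay at 9.11 (4.75 to 23.4) CPM in ENT-sham, 35.0 in replicate 2, and 32.8 (16.3 to 61.2) in ENT-BDL. The export pump ABCC4 rose by 1.07 (adjusted p = 1.18e-05), whereas its relative ABCC3 fell from 64.0 (51.5 to 84.0, replicate 2 at 47.3) CPM to 43.0 (33.0 to 69.5) (log2 fold change -0.51, SE 0.11, adjusted p = 0.000939). Among uptake carriers, SLCO1A2 (chromosome 5, 52020303-52133132) fell from 40.5 (24.2 to 72.0) CPM to 10.7 (7.24 to 22.6), with 14.0 in replicate 2 (log2 fold change -1.77, SE 0.23, adjusted p = 1.96e-07). The sodium-dependent uptake carrier SLC10A1 (NTCP) had a log2 fold change of -0.27 (adjusted p = 0.249).

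Among bile acid sensors and their partners 5 of 13 tested genes were lower and 3 higher. FXR (NR1H4) was slightly lower (-0.23, SE 0.07, adjusted p = 0.0108). Its target SHP (NR0B2), a repressor of bile acid synthesis, fell from 28.9 (21.9 to 41.6, replicate 2 at 25.6) CPM to 16.2 (11.3 to 34.3) (log2 fold change -0.73, SE 0.16, adjusted p = 0.000558). FGFR4, the liver receptor of FGF19, had a log2 fold change of -0.06 (adjusted p = 0.63), and FGF19 itself was listed at 0 in all 22 ENT libraries. The vitamin D receptor VDR, which also binds lithocholic acid, rose by 2.16 (2.93 without the pair) from 0.104 (0 to 0.439, replicate 2 at 1.23) CPM to 1.03 (0.0710 to 1.90) (adjusted p = 0.00166), and the bile acid-responsive receptor S1PR2 by 0.70 (adjusted p = 0.00783, or 0.0572 in edgeR on the 22 ENT libraries alone).

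Of 41 tested genes of cytochromes P450 and other phase I enzymes 12 were lower and 5 higher, with a median of -0.20. CYP2E1 (chromosome 14, 141690737-141703078), which oxidises ethanol and small molecules, lay at 1257 (525 to 1661) CPM in ENT-sham, 164 in replicate 2, and 312 (38.9 to 515) in ENT-BDL (log2 fold change -1.86, SE 0.54, adjusted p = 0.0106). The alcohol dehydrogenase ADH4 lay at 79.0 (6.92 to 282, replicate 2 at 14.1) and 13.7 (7.63 to 56.1) CPM, with overlap of the groups (log2 fold change -2.43, SE 0.38, adjusted p = 6.09e-06). CYP1A2, FMO5 and the retinoic acid hydroxylase CYP26A1 had log2 fold changes of -1.37, -1.15 and -2.35 (adjusted p = 0.0144, 0.00491 and 0.00716). CYP2A19 fell by 2.10 on the log2 scale (adjusted p = 0.00792), a call lost in edgeR on the 22 ENT libraries alone (adjusted p = 0.0975). CYP3A enzymes hydroxylate bile acids and drugs. CYP3A22 (chromosome 3, 6617256-6665179) rose from 1398 (677 to 2542) CPM to 4591 (2286 to 12570.0), with 2923 in replicate 2 (log2 fold change 1.95, SE 0.28, adjusted p = 9.9e-07). CYP3A29 rose by 1.08 (adjusted p = 0.0237), a call lost without ENT-BDL replicate 4 or 10 (adjusted p = 0.0804 and 0.0725). The CYP3A genes lie side by side and resemble each other, so reads may be split between them.

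Of 21 tested genes of conjugation (phase II) 3 were higher and 3 lower, and of 28 NRF2 and glutathione genes 4 were higher and 4 lower, not far from the 8.78% and 8.66% of all genes. The sulfotransferase listed as SULT1A3 rose by 1.41 (adjusted p = 1.65e-05) and the glucuronosyltransferase UGT1A6 fell by 0.46 on the log2 scale (adjusted p = 0.0174). MGST3 fell by 0.64 (adjusted p = 0.000856). SULT2A1, which sulfates bile acids, SULT1E1 and GSTA1 had -0.02, 0.18 and 0.52 (adjusted p = 0.972, 0.548 and 0.287). Sulfiredoxin (SRXN1) rose from 6.47 (5.21 to 15.7, replicate 2 at 37.6) CPM to 30.4 (16.0 to 48.5) (log2 fold change 1.55, SE 0.25, adjusted p = 1.26e-05), and the cystine importer SLC7A11 by 1.14 (adjusted p = 0.000311). The NRF2 targets NQO1, HMOX1, TXNRD1 and GCLC had 0.53, -0.31, 0.20 and -0.23, none past the threshold (adjusted p = 0.112, 0.0699, 0.163 and 0.286). HMOX1 passed without the pair (adjusted p = 0.0437), without ENT-sham replicate 2 or 4 and without ENT-BDL replicate 6 (adjusted p = 0.0184, 0.0492 and 0.0381), and NQO1 without ENT-sham replicate 10 or ENT-BDL replicate 2 (adjusted p = 0.0442 and 0.0434).

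Of 34 tested acute phase genes 12 were lower and 2 higher, or 1 higher with the title number as a block, with a median of -0.29. C-reactive protein is listed as 2 neighbouring genes on chromosome 4. The copy with gene identifier 396842 (90793361-90801020) had the largest fall among genes with a mean log2 CPM of at least 2, from 136 (40.5 to 330.6) CPM in ENT-sham to 12.3 (5.72 to 35.3) in ENT-BDL, with 7.58 in replicate 2 (log2 fold change -3.27, SE 0.50, adjusted p = 4.52e-06). The CRP copy 100620468 fell by 1.07 on the log2 scale (adjusted p = 0.0123). Haptoglobin (HP), which binds free haemoglobin, lay at 8872 (4420.2 to 12839, replicate 2 at 2410.2) CPM in ENT-sham and 3645 (2373 to 7604) in ENT-BDL (log2 fold change -0.99, SE 0.28, adjusted p = 0.00844). ITIH4, the major acute phase protein of pigs, fell from 3291 (1824 to 4716, replicate 2 at 1558) to 1427 (919 to 2157) CPM (a log2 fold change of -1.13, SE 0.21, adjusted p = 6.56e-05), and the interleukin-6 receptor IL6R by 0.62 on the log2 scale (adjusted p = 1.15e-06). Serum amyloid SAA2 spread widely, at 64.3 (4.04 to 841, replicate 2 at 13.7) CPM in ENT-sham and 7.11 (4.90 to 237) in ENT-BDL (log2 fold change -1.59, adjusted p = 0.174, or 0.0259 without ENT-BDL replicate 9). Albumin (ALB), a negative acute phase protein, was also lower (-0.83, SE 0.15, adjusted p = 7.58e-05), and every ENT-BDL pig lay below all 11 ENT-sham pigs other than replicate 2. Transferrin (TF, gene 396996) was higher, from 16703 (11251 to 24780.4, replicate 2 at 19930.3) CPM to 28595 (20135 to 39076) (log2 fold change 0.84, adjusted p = 4.24e-06), while its second copy TF 396845 had 0.04 (adjusted p = 0.81). Ceruloplasmin (CP), which carries copper, fell by 1.54 (adjusted p = 0.00284), while SERPINA1 and transthyretin (TTR) had 0.16 and -0.24 (adjusted p = 0.643 and 0.197).

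Of 20 tested iron genes 4 were lower and none higher, against 8.66% and 8.78% of all genes. By edgeR 8 had an unadjusted p under 0.05, and by DESeq2 4 passed the adjusted p. Hepcidin (HAMP), the iron hormone, lay at 128 (39.98 to 267, replicate 2 at 44.9) and 73.0 (34.2 to 128) CPM and did not pass (-0.78, adjusted p = 0.114). Transferrin receptor 2 (TFR2), which senses iron in hepatocytes, and ID1, a BMP target, fell by 0.51 and 0.86 (adjusted p = 3.86e-05 and 0.000554). The uptake receptor TFRC, ferritin FTH1 and the exporter SLC40A1 had -0.21, 0.08 and -0.30 (adjusted p = 0.455, 0.572 and 0.0873), and SLC40A1 passed by DESeq2 on the ENT libraries alone and with the title number as a block (adjusted p = 0.0344 and 0.0342). Of 16 metallothionein and metal transporter genes 1 was lower, against 8.66% of all genes. This was the zinc and iron importer SLC39A14 (-0.45, adjusted p = 0.00133). MT1A, MT3, SLC39A8 and ATP7B had 0.02, -0.07, -0.06 and -0.08, none past the threshold (adjusted p = 0.962, 0.9, 0.721 and 0.695).

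Of 45 tested coagulation and complement genes 10 were lower and 6 higher. The complement regulator C4BPA (gene 100520761, chromosome 9, 67726159-67774369) fell from 229.7 (111 to 372, replicate 2 at 51.5) CPM to 68.7 (36.9 to 98.2) (log2 fold change -1.82, SE 0.34, adjusted p = 8.5e-05), and its second copy C4BPA 396982 had -0.22 (adjusted p = 0.419). Prothrombin (F2) and factor VII (F7), both made in hepatocytes, fell by 0.40 and 0.42 on the log2 scale (adjusted p = 0.000312 and 0.00322). The plasmin inhibitor SERPINF2 fell by 0.67 (adjusted p = 1.15e-06), and complement C3 and C9 had 0.13 and -0.62 (adjusted p = 0.686 and 0.673). Among 16 apolipoproteins 5 were lower and none higher by edgeR, against 8.66% and 8.78% of all genes. APOA1 and APOB fell by 0.47 and 0.35 (adjusted p = 0.0136 and 0.00788), and APOH and APOA5 by 0.43 and 1.07 (adjusted p = 0.00725 and 0.0144). APOE and APOA4 had -0.07 and -0.14 (adjusted p = 0.653 and 0.874). At an unadjusted p under 0.05 there were 6 apolipoprotein genes, and by DESeq2 5 passed the adjusted p.

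Of 20 tested hepatocyte transcription factors 12 were lower and 1 higher, the highest share of falls among the 39 lists, with a median of -0.30. HNF4A itself had a log2 fold change of -0.08 (SE 0.08, adjusted p = 0.588). CEBPA fell from 101 (66.9 to 214, replicate 2 at 62.4) CPM to 68.1 (50.8 to 93.0) (log2 fold change -0.77, SE 0.15, adjusted p = 0.000218), and FOXA2 by 0.44 on the log2 scale (adjusted p = 0.00498). ATF5, abundant in liver, lay at 799.9 (645 to 1024, replicate 2 at 313) CPM in ENT-sham and 431 (253 to 588) in ENT-BDL (log2 fold change -0.81, SE 0.15, adjusted p = 9.57e-05). ONECUT2, a factor of bile duct and liver development, was the member that rose (0.40, adjusted p = 0.000164). Of 20 clock genes 7 were lower and 1 higher. Of the output factors, HLF fell from 80.8 (64.5 to 107, replicate 2 at 43.4) CPM to 39.8 (33.7 to 54.0) (log2 fold change -0.96, SE 0.14, adjusted p = 1.27e-06), DBP by 1.13 (adjusted p = 0.000101), and the repressors NR1D1 and PER3 by 0.97 and 0.70 (adjusted p = 0.00434 and 2.78e-05). ARNTL, the core activator, and PER2 had -0.31 and -0.48 (adjusted p = 0.125 and 0.141), and PER2 passed in edgeR on the 22 ENT libraries alone (adjusted p = 0.0139). The hour of sampling was not used here, and its part in these values was not tested.

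Other large falls came from outside the lists. CORIN (chromosome 8, 37530812-37811226), a membrane protease that activates natriuretic peptides, had little spread, at 30.1 (23.2 to 32.4) CPM in ENT-sham, 10.001 in replicate 2, and 7.66 (6.07 to 11.06) in ENT-BDL (log2 fold change -1.81, SE 0.17, adjusted p = 9.4e-11). DUSP6 (chromosome 5, 93303058-93307510), a phosphatase that ERK signalling induces and that switches ERK off, fell from 102 (70.7 to 127) CPM to 29.1 (17.9 to 35.8), with 28.9 in replicate 2 (log2 fold change -1.83, SE 0.20, adjusted p = 4.18e-09). RTP3, a chaperone-like protein of liver, fell from 57.2 (20.3 to 110.3, replicate 2 at 5.87) to 9.27 (3.40 to 20.4) CPM (a log2 fold change of -2.38, SE 0.43, adjusted p = 6.86e-05). Lubricin (PRG4), a secreted proteoglycan, fell from 14.1 (4.07 to 30.3, replicate 2 at 7.53) to 1.56 (0.142 to 7.26) CPM (a log2 fold change of -2.42, SE 0.58, adjusted p = 0.00195). The dynein chain DYNC1I1 and the endothelial proteoglycan ESM1 had log2 fold changes of -2.03 and -1.78 (adjusted p = 1.49e-06 and 0.000101). Among the large rises, the netrin receptor UNC5B (chromosome 14, 74120055-74208055) went from 12.8 (8.94 to 15.7) to 73.6 (42.5 to 118) CPM, with 86.6 in replicate 2 (log2 fold change 1.96, SE 0.25, adjusted p = 1.57e-07).

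Of 29 tested genes of cholesterol synthesis and uptake 11 were higher and 3 lower, with a median of 0.26. HMG-CoA synthase 1 (HMGCS1, chromosome 16, 27936225-27957261) lay at 188 (105 to 307) CPM in ENT-sham, 553 in replicate 2, and 690.3 (498 to 1069.5) in ENT-BDL (log2 fold change 1.63, SE 0.20, adjusted p = 6.3e-08). Squalene epoxidase (SQLE) and farnesyl diphosphate synthase (FDPS) rose by 0.73 and 0.57 (adjusted p = 2.21e-05 and 0.000228). SCARB1, which takes up cholesterol from high-density lipoprotein, fell from 198 (185 to 214, replicate 2 at 110.5) CPM to 124 (76.1 to 137) (log2 fold change -0.68, SE 0.08, adjusted p = 5.04e-09). SREBF1, the main activator of fatty acid synthesis, fell from 424 (308 to 521, replicate 2 at 184) to 215 (58.3 to 379) CPM (a log2 fold change of -0.93, SE 0.17, adjusted p = 6.49e-05), and the triglyceride enzyme DGAT1 by 0.55 (adjusted p = 7.15e-05). The synthesis enzymes FASN, ACACA and SCD had -0.11, -0.06 and 0.22, none past the threshold (adjusted p = 0.821, 0.817 and 0.527). In the list of 33 lipogenesis genes 8 were higher and 7 lower.

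Of 35 tested genes of fatty acid oxidation and ketogenesis 10 were lower and 1 higher, with a median of -0.22, and 12 were lower without the pair and 17 with the title number as a block. CPT1A, the gate of mitochondrial fat oxidation, fell by 0.42 (adjusted p = 0.0336), a call kept in 12 of the 22 fits that left out 1 ENT library. PHYH, of branched fatty acid oxidation, fell by 0.70 and ACADSB rose by 0.47 (adjusted p = 0.00411 and 0.00223), while ACADM had -0.13 (adjusted p = 0.623). Of 46 genes of amino acid breakdown 23 were lower and 4 higher, with a median of -0.30. Cysteine dioxygenase (CDO1) and cystathionine beta-synthase (CBS) of sulfur amino acid metabolism fell by 1.01 and 0.78 on the log2 scale (adjusted p = 0.0178 and 0.00039). CSAD, which makes taurine for bile acid conjugation, rose by 0.79 (adjusted p = 4.34e-05), and ACMSD of tryptophan breakdown by 1.32 (adjusted p = 0.000135). TAT, of tyrosine breakdown, had 0.06, and GLDC and SDS, of glycine and serine breakdown, -0.02 and 1.11 (adjusted p = 0.865, 0.932 and 0.167). SDS passed in edgeR on the 22 ENT libraries alone (adjusted p = 0.0432).

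Of 14 tested genes of the urea cycle and ammonia, arginase (ARG1) rose by 0.91 (adjusted p = 0.00196) and the mitochondrial carrier SLC25A13 fell by 0.41 (adjusted p = 0.0012). Among all tested genes 8.78% were higher and 8.66% lower. In this list 3 genes were lower without the pair or with the title number as a block. CPS1, OTC and ASS1 had 0.02, -0.21 and -0.03, none past the threshold (adjusted p = 0.955, 0.323 and 0.936). Among 31 genes of glucose metabolism 6 were lower and 1 higher, or 2 without the pair, with ketohexokinase (KHK), the fructose kinase, falling from 40.8 (13.4 to 78.1, replicate 2 at 11.6) CPM to 10.7 (7.24 to 16.5) (log2 fold change -1.72, SE 0.28, adjusted p = 1.05e-05). Hexokinase HK2, which hepatocytes normally lack, rose by 1.98 (adjusted p = 0.00312), or by 2.79 without the pair, with at most 39 counts in a library. The gluconeogenic PCK1 and G6PC had -0.75 and -0.47, neither past the threshold (adjusted p = 0.11 and 0.238), and PCK1 passed without ENT-BDL replicate 2 (adjusted p = 0.039). The pyruvate kinase PKLR fell by 0.43 (adjusted p = 0.0409), a call lost in 11 of the 22 fits that left out 1 ENT library.

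Of 20 tested ATF4 and serine synthesis genes 3 were higher and 1 was lower, and of 23 endoplasmic reticulum genes 1 was higher and 2 were lower, or 1 lower with the title number as a block, against 8.78% and 8.66% of all genes. PPP1R15A, which ends the block on translation, rose by 0.81 and SHMT2, of serine metabolism, fell by 0.50 (adjusted p = 0.000256 and 0.000722). ATF4, ASNS, PHGDH and TRIB3 had -0.03, -0.40, 0.23 and -0.20, none past the threshold (adjusted p = 0.831, 0.107, 0.162 and 0.695), and ASNS passed without ENT-BDL replicate 7 (adjusted p = 0.0362). The stress kinase EIF2AK3 rose by 0.24 (adjusted p = 0.0196), and the ubiquitin ligase SYVN1 fell by 0.36 (adjusted p = 0.0456), a call lost in 14 of the 22 fits. The chaperone HSPA5, XBP1, HERPUD1 and DERL3 had -0.10, -0.18, -0.15 and -0.19, none past the threshold (adjusted p = 0.778, 0.162, 0.577 and 0.788).

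Of 42 tested cell cycle genes 12 were higher and none lower in the edgeR fit of all libraries, with a median of 0.23 (19 at an unadjusted p under 0.05 and 12 past the adjusted p by DESeq2). By edgeR 13 were higher and 1 lower without the pair, and 13 and 2 with the title number as a block. MKI67, a marker of dividing cells, lay at 69.7 (53.1 to 105, replicate 2 at 67.2) CPM in ENT-sham and 110.1 (57.5 to 159) in ENT-BDL (log2 fold change 0.47, SE 0.16, adjusted p = 0.0386), and its call was lost in 12 of the 22 fits that left out 1 ENT library. TOP2A rose by 0.44 and CCNB1 by 0.58 (adjusted p = 0.0243 and 0.0316), both calls lost without ENT-BDL replicate 4 (adjusted p = 0.0902 and 0.0766) and that of CCNB1 also without ENT-sham replicate 12 (adjusted p = 0.056). BIRC5 and PLK1, of mitosis, rose by 0.54 and 0.48 (adjusted p = 0.0106 and 0.0228), and the call of PLK1 was lost without ENT-BDL replicate 7 (adjusted p = 0.0604). The inhibitor CDKN1A had -0.41 (adjusted p = 0.109), and passed with the title number as a block (-0.47, adjusted p = 0.0401). Alpha-fetoprotein (AFP), the fetal counterpart of albumin, rose from 2214 (1369 to 5077, replicate 2 at 3558) CPM to 5097 (2191 to 8689) (log2 fold change 0.98, SE 0.23, adjusted p = 0.00138). Of 23 genes of the IGF axis 3 were higher and 3 lower, against 8.78% and 8.66% of all genes. The growth hormone receptor GHR and the insulin receptor INSR fell by 0.54 and 0.45 (adjusted p = 0.00378 and 0.000282). IGF1, IGFALS and IGFBP1 had -0.73, -0.43 and -0.03, none past the threshold (adjusted p = 0.153, 0.131 and 0.975), and IGF1 passed by DESeq2 on the ENT libraries alone (adjusted p = 0.041) and with the title number as a block without the pair (adjusted p = 0.0457).

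Of 26 tested interferon-stimulated genes 25 had a negative log2 fold change, with a median of -0.38, and none passed by edgeR, with 1 at an unadjusted p under 0.05 and 0 past the adjusted p by DESeq2. This direction rested on the pig ENT-sham replicate 7. Without it the median was 0.23, 6 of the 26 genes were negative and none passed. With the title number as a block 15 were negative, with a median of -0.02, and without ENT-BDL replicate 3 or 5 the median was -0.69 or -0.75, with 1 gene past the threshold without replicate 3. The pigs of both groups were widely spread. ISG15, a ubiquitin-like antiviral protein, lay at 29.3 (6.52 to 458, replicate 2 at 18.6) CPM in ENT-sham and 12.6 (4.48 to 199) in ENT-BDL (log2 fold change -0.59, SE 0.81, adjusted p = 0.68), and MX1 and IFIT1 had -0.66 and -0.35 (adjusted p = 0.609 and 0.796). Without ENT-sham replicate 7 these 3 genes had 0.47, 0.51 and 0.64, none past the threshold. Of 15 erythroid genes, whose median was 0.71 (0.27 without ENT-BDL replicate 7 and 1.19 without ENT-sham replicate 5), 1 was lower (TFR2, which is also an iron gene) and none higher by edgeR, or 1 with the title number as a block, with 1 at an unadjusted p under 0.05 and 1 past the adjusted p by DESeq2. Haemoglobin beta (HBB) lay at 1152 (458 to 2257, replicate 2 at 489.7) and 1094 (330.7 to 3632) CPM (a log2 fold change of 0.11, SE 0.32, adjusted p = 0.864). ALAS2 and SLC4A1 had 0.07 and 1.06, neither past the threshold (adjusted p = 0.921 and 0.35). Of 19 endothelial genes 3 were lower, against 8.66% of all genes, and 1 was higher without the pair. Those lower were the sinusoidal lectin CLEC4G (-0.69, adjusted p = 0.00665), LYVE1 (-0.45, adjusted p = 0.0465) and PLVAP (-0.40, adjusted p = 0.0496). The calls of LYVE1 and PLVAP were lost in 10 and 15 of the 22 fits that left out 1 ENT library. PECAM1, STAB2 and VWF had 0.11, -0.19 and 0.12, none past the threshold (adjusted p = 0.582, 0.664 and 0.801). None of 6 tested aquaporins passed by edgeR, with 1 at an unadjusted p under 0.05 and 0 past the adjusted p by DESeq2. AQP1, AQP3, AQP8 and AQP9 had 0.55, 0.98, -0.64 and 0.09 (adjusted p = 0.103, 0.195, 0.26 and 0.69), and AQP1, the water channel of bile ducts, passed without ENT-sham replicate 2 or 5 (adjusted p = 0.0348 and 0.0447).

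**Figure D4:**
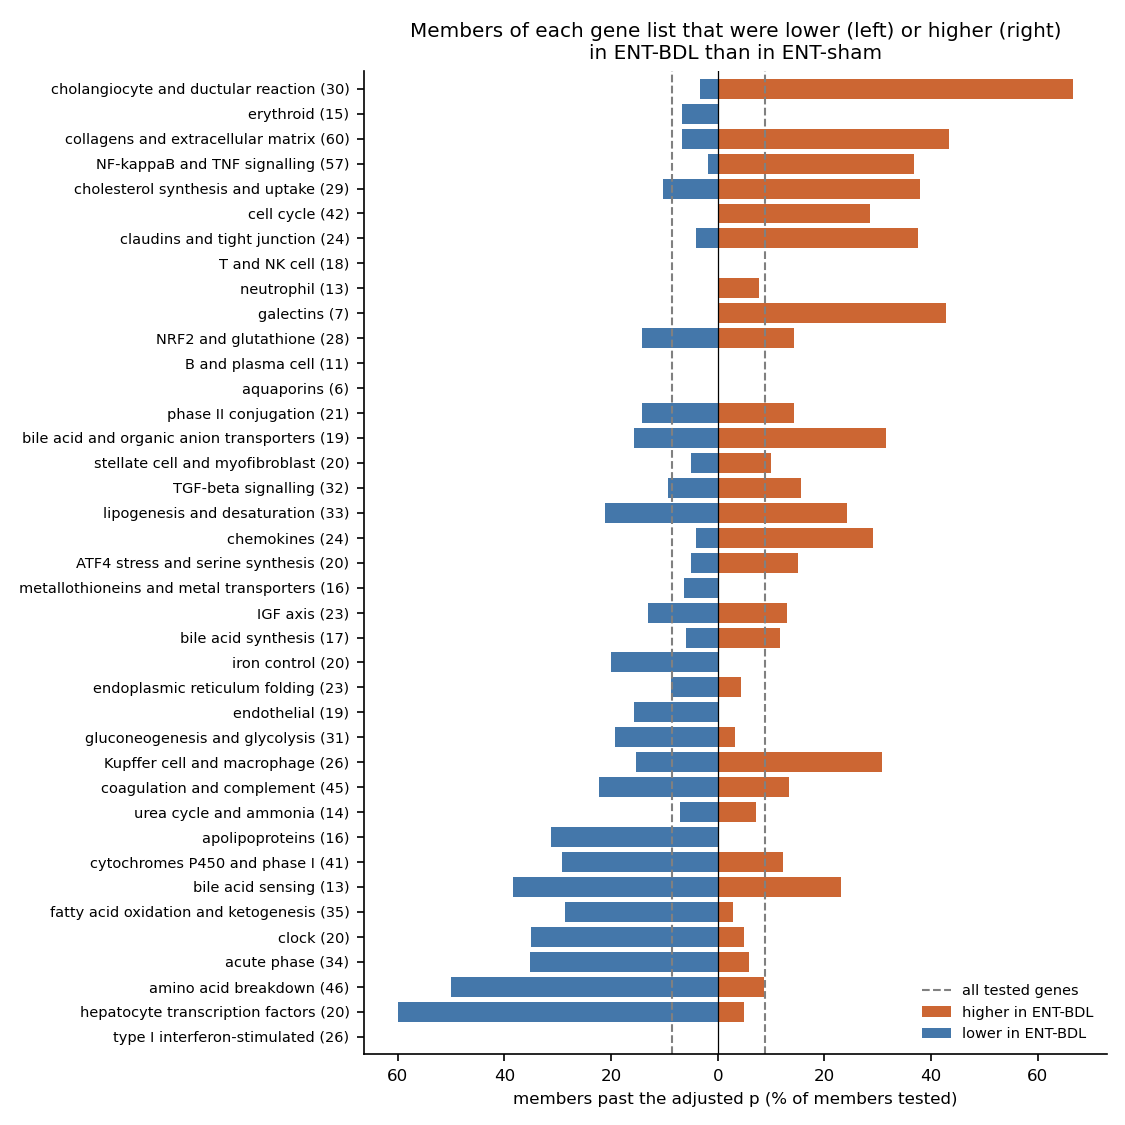
For each of 39 gene lists (number of tested members in parentheses), bars give the percentage of members past the adjusted p that were higher (right) or lower (left) in ENT-BDL than in ENT-sham. The dashed lines mark 8.78% higher and 8.66% lower among all tested genes, and the lists are sorted by their median log2 fold change.

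The response to BDL was then compared with that on the parenteral diets, in the same fit of all 60 libraries. It differed between SLE and ENT pigs for 369 genes (2.28% of those tested) and between MLE and ENT pigs for 13 (0.0802%). Of the 30 bile duct genes 1 passed this test between SLE and ENT, which was SPP1, and none between MLE and ENT by edgeR, where 1 had an unadjusted p under 0.05 and 0 passed by DESeq2. Without the matching pair 10 of the 30 passed between SLE and ENT, against 4.50% of all tested genes, and 1 between MLE and ENT, against 0.235%. The change in ENT enters these differences and the list was written with earlier results known, so these counts are descriptions. KRT7 had a log2 fold change of 1.85 in ENT, 1.45 in SLE and 1.82 in MLE, and MMP7 had 2.22, 1.49 and 2.14. Without the pair the response of MMP7 was lower than in ENT by a difference of -2.82 in SLE and -2.16 in MLE (adjusted p = 3.98e-07 and 0.0046). For KRT7, KRT19 and ELF3 the differences in SLE were then -1.21, -1.09 and -1.83 (adjusted p = 0.0194, 0.03 and 0.00254), and for CXCL8 it was -3.32 (adjusted p = 3.98e-07). With the pair none of these differences passed, at -0.73 and -0.08 for MMP7 in SLE and MLE (adjusted p = 0.717 and 0.988), and at -0.40, -0.83, -1.17 and -0.89 for the others in SLE (adjusted p = 0.77, 0.24, 0.223 and 0.641). CYP7A1 had 2.52, 3.51 and 2.83. GPNMB had 1.85 in ENT and -0.10 in SLE (difference adjusted p = 0.000718), with 1.38 in MLE, and LGALS3 had 3.45, 0.11 (difference adjusted p = 0.00073) and 3.45. SPP1 had 2.16, 0.05 (difference adjusted p = 0.00136) and 1.52. For these 3 genes the difference between MLE and ENT did not pass (adjusted p = 0.772, 1 and 0.706).

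Of the 34 acute phase genes 9 passed this test between SLE and ENT, against 2.28% of all genes. Between MLE and ENT none passed by edgeR, where 12 had an unadjusted p under 0.05 and 4 passed by DESeq2. Without the pair 11 and 2 passed. The list was written with earlier results known and the change in ENT enters the difference, so these counts are descriptions. CRP 396842 had a log2 fold change of -3.27 in ENT pigs and 1.85 in SLE pigs (adjusted p = 0.0192 in SLE and 1.8e-05 for the difference), and HP had -0.99 and 0.93 (adjusted p = 0.0409 and 0.00295). ITIH4 had -1.13 and 0.40, and the value in SLE did not pass on its own (adjusted p = 0.3, or 0.00154 for the difference). In MLE pigs HP and ITIH4 had -1.40 and -1.40, and the difference from ENT did not pass (adjusted p = 0.842 and 0.866). CRP 396842 had -0.24 in MLE pigs, a difference of 3.03 from ENT (adjusted p = 0.0664, or 0.0277 without the pair). Among the genes named here, HMGCS1, SQLE, ABCG5 and ABCC3 passed against both parenteral diets. Without the pair MMP7, CDH16, CLDN7, OCLN and CRP 396842 passed against both as well (for MLE, adjusted p = 0.0046, 0.0144, 0.0128, 0.0354 and 0.0277). HMGCS1 had 1.63 in ENT, -0.14 in SLE and 0.14 in MLE (difference adjusted p = 0.000276 and 0.0373). For ABCG5 the values were 0.88, -0.39 and -0.06 (adjusted p = 2.25e-05 and 0.0373), and for SQLE 0.73, -0.08 and -0.15 (adjusted p = 0.00587 and 0.0394). ABCC3 fell in ENT (-0.51) and had 0.19 in SLE and 0.29 in MLE (adjusted p = 0.00973 and 0.0394). Without the matching pair the counts were 726 genes between SLE and ENT and 38 between MLE and ENT, and without ENT-sham replicate 2 alone 764 and 47. Of the 242 tested genes named here, 41 passed between SLE and ENT and 4 between MLE and ENT, and without the pair 71 and 10 passed, the 41 and the 4 among them. Many of these genes were named for their change in ENT, which enters the difference, so nothing is read from these counts against the 2.28% and 0.0802% of all genes. Between MLE and ENT no gene passed by edgeR without ENT-sham replicate 3, 5 or 6 or without ENT-BDL replicate 4 or 9, with 1367 to 1473 genes at an unadjusted p under 0.05. Without ENT-sham replicate 1 or 10 or ENT-BDL replicate 3, 5, 6 or 8 the count was 4 to 8, and DESeq2 on all 60 libraries gave 47.

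**Figure D5:**
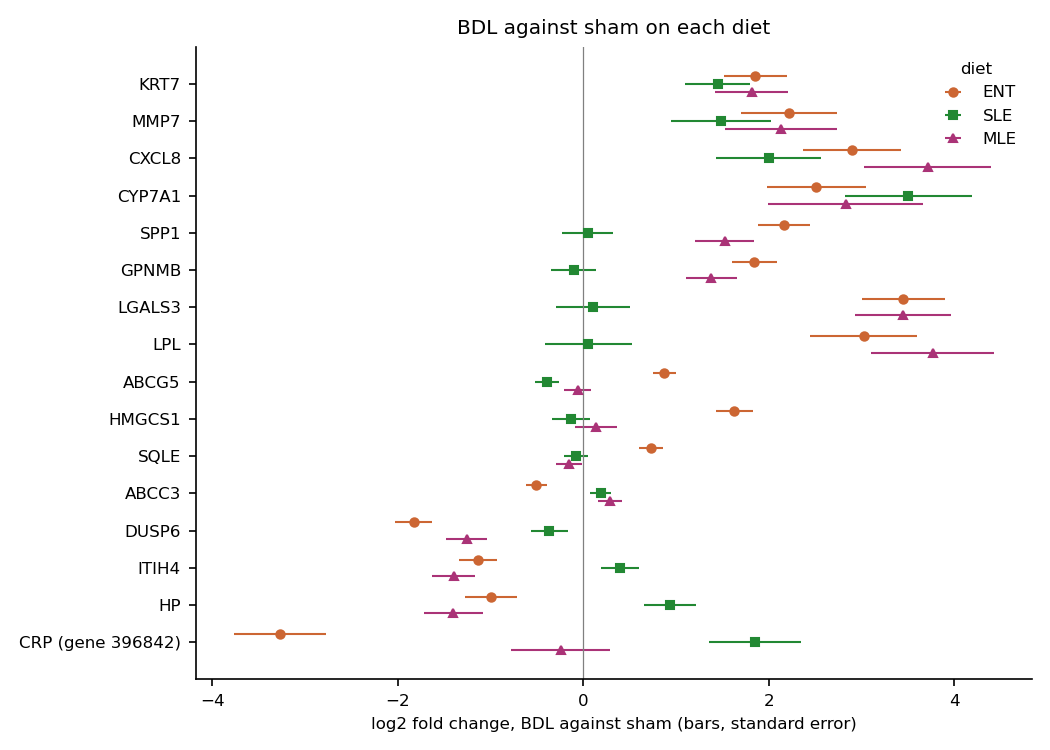
Log2 fold changes of BDL against sham with their standard errors in ENT, SLE and MLE pigs for 16 genes, chosen after their values were seen, in the fit that holds the matching pair. Values of HMGCS1, ABCG5 and SQLE lie between -0.39 and 0.14 on both parenteral diets, and those of CRP, HP and ITIH4 in SLE lie on the other side of 0 from ENT, with that of ITIH4 in SLE not past the threshold.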

How the data were processed

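Poly(A) RNA of piglet liver was sequenced in 60 libraries, of which the 22 of the ENT diet (12 ENT-sham, 10 ENT-BDL) are described here. The authors trimmed the reads with fastp, aligned them with HISAT2 to the pig genome (Sscrofa11.1) and counted them per gene with featureCounts, and the deposited values are raw read counts per gene. The kit does not mark strand, and 58 of the 242 tested genes named in the text overlap another annotated feature, so reads of overlapping genes cannot be told apart. Features without a gene name were left out. Totals of 14776809 to 21374161 counts per ENT library set the precision of low genes, and counts of a few reads carry counting error on top of the spread between pigs.

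Groups came from the sample titles. Counts of all 60 libraries were fitted together in edgeR 4.0.16 (R 4.3.3, limma 3.58.1) with filterByExpr, TMM scaling and the quasi-likelihood test with robust dispersion, with Benjamini-Hochberg adjustment across the 16210 genes tested. Genes were called at an adjusted p under 0.05 and more than a 2-fold change, which are the thresholds of the study's own DESeq2 analysis. For a single named gene, a call that was kept, lost or changed refers to the adjusted p alone. A log2 fold change is ENT-BDL minus ENT-sham, and differences between diets are interaction terms of the same fit. All tests are two-sided. Alternatives were RLE scaling, DESeq2 1.42.0, the ENT libraries alone, other filters, blocks for the replicate number and for the number in the titles, and leaving out each ENT library or the matching pair. The title number block without the pair was chosen after seeing the data.

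The members and gene lists were chosen with earlier results of these data known. Named genes are the 12 largest rises and falls among called genes averaging 2 or more in log2 CPM, the core genes of 39 lists whatever their result, and up to 2 further genes per list with the smallest adjusted p, apart from some genes that are not reported here. CFTR, SCTR, PKHD1, CDH6, TSPAN8, KRT8, KRT18, VCAM1, CD5L, MMP9, PLAT, SLC51A, ABCB4, ABCC4, CYP2A19, ALB, CP, TTR, SERPINA1, CDO1, CBS and the second copies of TF and C4BPA were added after their values were seen. Copies of CRP, TF, C4BPA, CYP3A, CYP2A19, SULT1A3, SAA2 and CXCL2 may share reads with near-identical genes and are uncertain in that respect. Residuals of ENT-sham and ENT-BDL libraries of the same replicate number correlated at -0.181 to 0.381, so the replicate numbers do not pair the pigs. Libraries of the 2 groups that share the number in the title correlated more, with a median of 0.177 (lowest 0.00443) against -0.0454 for other numbers, or 0.158 against -0.0294 without the pair.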

Additional observations from a re-analysis of the deposited data

Results flagged for a closer look

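Among the 242 tested genes named above, 18 had 1 ENT-BDL pig far from the other 9 on the log2 scale, by a gap above Dixon's critical value for 10 samples (0.466). Chance gives such a gap in about 1 in 20 groups, and groups of more than 10 were not examined. In ENT-BDL replicate 5, ELF3, INHBB, S1PR2 and PPP1R15A were lowest at 8.86, 3.92, 1.67 and 12.4 CPM. In ENT-BDL replicate 2, CXCL14 and PLAT were highest at 29.9 and 63.7 CPM. In ENT-BDL replicate 2, APOA5 was lowest at 11.07 CPM. In ENT-BDL replicate 4, VIM, TXNRD1 and SLC39A8 were highest at 245, 82.7 and 109 CPM. In ENT-BDL replicate 4, VDR, GCLC, SCARB1 and FASN were lowest at 0.0710, 139.9, 76.1 and 296 CPM. In ENT-BDL replicate 10, ADH4 was highest at 56.1 CPM. In ENT-BDL replicate 9, CRP 396842 was highest at 35.3 CPM. In ENT-BDL replicate 1, TAT was lowest at 403 CPM. In ENT-BDL replicate 8, ARNTL was lowest at 13.9 CPM. ENT-BDL replicate 4 was the far pig for 7 of the 18 genes, and whether that liver differed in another way was not tested.

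The log2 fold change after BDL differed between SLE and ENT pigs for 41 of these genes by the interaction term of the edgeR fit (adjusted p under 0.05), where 2.28% of all tested genes passed. Many of the genes were named for their change in ENT pigs, which enters this difference, so the count is a description. It was lower in SLE than in ENT for SPP1, CDH16, CLDN7, TNFRSF9, NFKB2 and IKBKE, by differences of -2.12, -2.58, -1.24, -2.48, -0.67 and -1.23. Lower values in SLE were also found for VCAM1, LGALS3, GPNMB, TREM2, LPL and UNC5B, by differences of -1.37, -3.34, -1.95, -2.53, -2.97 and -1.37. The same direction was seen for ABCG5, SULT1A3, SLC7A11, HMGCS1, SQLE and FDPS, by differences of -1.27, -1.14, -1.29, -1.76, -0.81 and -0.59. Differences below 0 were further found for PHGDH, by differences of -0.68. It was higher in SLE than in ENT for SELP, MMP19, FST, ABCC3, SLCO1A2 and ADH4, by differences of 1.52, 1.06, 2.35, 0.69, 1.23 and 2.55. Higher values in SLE were also found for CRP 100620468, CRP 396842, HP, ITIH4, IL6R and CP, by differences of 2.08, 5.13, 1.93, 1.53, 0.48 and 2.07. A positive difference was seen for C4BPA 100520761, RTP3, DYNC1I1, DUSP6, SCARB1 and KHK, by differences of 2.004, 3.01, 1.75, 1.46, 0.47 and 1.68. Differences above 0 were further found for CDO1, the feature listed as INHBA, INSR and SLC39A14, by differences of 2.18, 0.60, 0.48 and 0.69. Between MLE and ENT pigs the test passed for ABCC3, ABCG5, HMGCS1 and SQLE, with differences of 0.80, -0.94, -1.49 and -0.88 in MLE minus ENT. Without the matching pair 71 genes passed between SLE and ENT and 10 between MLE and ENT. Because the diets shared title numbers only in part, these differences may also hold differences between title numbers, which was not tested.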

How the results depend on the processing

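Called genes, 552 in the report, numbered 400 to 681 with RLE scaling, DESeq2, edgeR on the ENT libraries alone and no filter, 238 when only genes with 10 or more counts throughout the ENT libraries were tested, which leaves fewer genes, 596 with the title number as a block, 723 without the matching pair, 748 with both, and 2827 at any fold change. Leaving out 1 ENT library gave 484 to 801 called genes, the highest without ENT-sham replicate 2, and 2453 to 3643 at any fold change. Between SLE and ENT the count, 369 in the report, was 726 without the matching pair and 282 to 519 by the other fits of all libraries, and 288 to 764 when 1 ENT library was left out. Between MLE and ENT, 13 in the report, it was 47 with DESeq2 on all 60 libraries, 72 with the title number as a block, 38 without the matching pair, and 0 to 47 when 1 ENT library was left out, the 0 being edgeR's count without ENT-sham replicate 3, 5 or 6 or ENT-BDL replicate 4 or 9, with 1367 to 1473 genes then at an unadjusted p under 0.05. The replicate block gave 536 called genes, 2432 at any fold change, 364 for SLE and 19 for MLE, and CYP8B1, MKI67, TOP2A, CCNB1, LYVE1, LOXL2, PLVAP, PKLR, SYVN1 and PLK1 then lost their call. Pigs of the same replicate number share only the number (median residual correlation 0.0243 over 10 numbers, with 2 ENT-sham libraries closest to their own number). In edgeR on the ENT libraries alone MMP7, CDH6, S1PR2 and CYP2A19 missed the threshold (adjusted p = 0.0657, 0.0525, 0.0572 and 0.0975). LYVE1, PLVAP, PKLR and SYVN1 lost their call there, in DESeq2 on the ENT libraries alone and with no filter (adjusted p = 0.056 to 0.153). TSPAN8, DES, CPT1A and MKI67 were also lost with no filter (adjusted p = 0.0505 to 0.0739), and PLVAP and SYVN1 with 10 or more counts throughout. Genes that newly passed were CYP27A1, SDS and PER2 in edgeR on the ENT libraries alone, CYP27A1 with 10 or more counts throughout, SOX9, COL1A1, CYP27A1 and HMOX1 without the matching pair, CYP27A1, IGF1, PCK1, SLC40A1, SDS and PER2 by DESeq2 on the ENT libraries alone, and CDKN1A and SLC40A1 with the title number as a block, where TSPAN8 was lost. With that block and without the pair they were SOX9, COL1A1, CYP27A1, HMOX1, IGF1, PCK1, SLC40A1, ASNS, CDKN1A and AQP1. Of the 242 named genes, the call changed in 59 of the values under the other settings and in 131 of those with 1 library left out. Of the same genes, 21 changed sign under some setting, none of them past the adjusted p in the report or where the sign changed (lowest adjusted p 0.474 there), and the cause was not tested. With the title number as a block, SULT2A1, HBB, ALAS2 and IFIT1 had log2 fold changes of 0.0259, -0.0493, -0.0462 and 0.22. With that block and without the matching pair, SULT2A1, MX1, HBB, VWF, ALAS2 and IFIT1 had log2 fold changes of 0.0402, 0.000964, -0.0226, -0.00938, -0.0329 and 0.275. With DESeq2 on the ENT libraries alone, ISG15, MX1 and IFIT1 had log2 fold changes of 0.511, 0.538 and 0.669. With the replicate block, ACACA, GLDC and IGFBP1 had log2 fold changes of 0.0157, 0.00631 and 0.153. With each ENT library left out in turn, the log2 fold changes ran over SMAD7 -0.116 to 0.0169, SULT2A1 -0.13 to 0.0422, FASN -0.275 to 0.0106, CPS1 -0.0482 to 0.102, ISG15 -1.28 to 0.472, MX1 -1.2 to 0.507, HBB -0.233 to 0.24, CD3E -0.00397 to 0.19, CD2 -0.0625 to 0.239, VWF -0.0865 to 0.287, ALAS2 -0.245 to 0.183, ACACA -0.124 to 0.0459. They also ran over ASS1 -0.0814 to 0.0627, GLDC -0.0678 to 0.0415, ATF4 -0.0586 to 0.00328, TRIB3 -0.442 to 0.101, DERL3 -0.348 to 0.0363, IGFBP1 -0.12 to 0.0732, IFIT1 -0.78 to 0.642, MT1A -0.0549 to 0.097 and MT3 -0.188 to 0.0544. ISG15, MX1, TRIB3 and IFIT1 were positive in 1 of these fits, that without ENT-sham replicate 7, where they had 0.472, 0.507, 0.101 and 0.642. Among the medians of the 39 lists, that of the interferon-stimulated genes changed sign without ENT-sham replicate 7, at 0.23, and the others that changed sign when 1 library was left out were 9 lists with medians of -0.0611 to 0.0511. Depth limits genes such as CYP8B1, TSPAN8, CCL11, HK2 and TREM2, with at most 39 reads in any ENT library.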
